A study of Homo sapiens with 6 samples.

Results

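The genes described here belong to the cellular defence against oxidants and foreign chemicals. They are the genes of the transcription factor NRF2 (gene NFE2L2) and the aryl hydrocarbon receptor (gene AHR), with their inhibitors and targets. Of 35 genes named by symbol, 33 had at least 1 probe set annotated to that gene alone, among 19775 genes with such a probe set in the series. These 33 genes were read by 65 of the 54613 probe sets. FTH1, a ferritin chain, and AKR1B1, an aldo-keto reductase, were not analysed here.

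The lung adenocarcinoma cell line PC9 is sensitive to gefitinib, a drug that blocks the kinase of EGFR. The line PC9/gef was derived from PC9 by continuous exposure to rising gefitinib concentrations, and both lines were grown in the same serum-containing medium. RNA of 3 PC9 and 3 PC9/gef samples was hybridized to Affymetrix U133 Plus 2.0 arrays, 1 array per sample. Whether gefitinib was in the medium when RNA was taken, and whether PC9/gef is 1 clone, are not given in the sources used here. The samples of a line are labelled biological replicates, without saying whether they were separate cultures, so the p-values measure the spread between these samples only.

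In unstressed cells KEAP1 holds NRF2 and hands it over for degradation. Oxidants and electrophiles release NRF2, which pairs with a small MAF protein and binds the antioxidant response element, raising genes of glutathione synthesis, the thioredoxin system, quinone and carbonyl reduction and iron storage. Many lung tumours carry a constantly active NRF2. AHR lies in the cytoplasm until a ligand such as a dioxin or a tryptophan metabolite binds it. It then pairs with ARNT on the xenobiotic response element and raises cytochrome P450 genes together with its own repressors.

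Gene values are deposited log2 expression values, each gene being read from the brightest of its probe sets by the mean of the 6 arrays. Differences are on the log2 scale, PC9/gef minus PC9, so that 1 is a 2-fold change. They were tested with limma, with p-values adjusted by Benjamini-Hochberg over all 19775 genes and a threshold of 0.05. The background level was 2.65, set by olfactory receptor probe sets. A change in every cell and a change in the share of cells that express a gene cannot be told apart in such bulk RNA. The 6 arrays had the same distribution of values, and their correlations were at least 0.9992 within a line and at most 0.9944 between the lines. Of 10 lung adenocarcinoma and epithelial markers, the keratin genes KRT7, KRT8, KRT18 and KRT19 had means of 13.61 or more in both lines, whereas NKX2-1 and NAPSA, which mark many lung adenocarcinomas, lay at background level. Among 8 fibroblast markers 6 lay at background level in both lines, including COL1A2, COL3A1 and PDGFRB, and the summed linear level of the list, carried mostly by COL1A1 (means of 7.94 and 8.46, adjusted p = 0.038 in limma), was 260.4 to 328.4 in PC9 and 370.9 to 401.8 in PC9/gef. Of 6 measured leukocyte markers 3 lay at background level, PTPRC and CD3E among them, and their sum, mostly the secretory gene LYZ, was 474.1 to 523.4 in PC9 and 276.2 to 278 in PC9/gef. Within this list LYZ fell by 2.12-fold (limma adjusted p = 0.00103), whereas ITGAM, an integrin chain of myeloid cells, rose by 2.23-fold from a mean near background level, 3.77, to 4.93 (adjusted p = 0.043). Their part in the results was not tested.

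The xenobiotic response genes moved in both directions in PC9/gef, and most changes were small. The 33 genes held 12 that rose, 7 that fell and 14 that did not pass the test. The 12 include AKR1C1 and AKR1C2, whose probe sets moved in opposite directions, and the counts were 10 up and 9 down when each gene was read from its most variable probe set, and 10 up and 8 down when its probe sets were averaged. Over all genes tested 14.4% rose, 17.1% fell and 31.5% passed in either direction. Over the 11955 genes above background level in at least 1 line 46% passed (23.8% higher, 22.2% lower), and 32 of the 33 genes were among these. The median log2 change was 0.0046 for the 33 genes and -0.00065 for all genes tested. Of the 19 genes that passed, 11 changed by less than 1.2-fold, 1 by 1.2-fold to 1.5-fold and 7 by more. Without regard to sign, the median log2 change was 0.16 for the 33 genes and 0.055 for all genes tested. It was 0.18 for the genes above background level in at least 1 line, so small changes were not particular to the 33. The 3 arrays of one line lay wholly above or below those of the other in 22 of the 33 genes, against 55.7% of all genes. AKR1B10 and CYP1B1, both lower in PC9/gef, were the 2 genes beyond 2-fold. Over all genes tested 2.88% went beyond 2-fold, and over those above background level 4.77%.

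**Figure D1:**
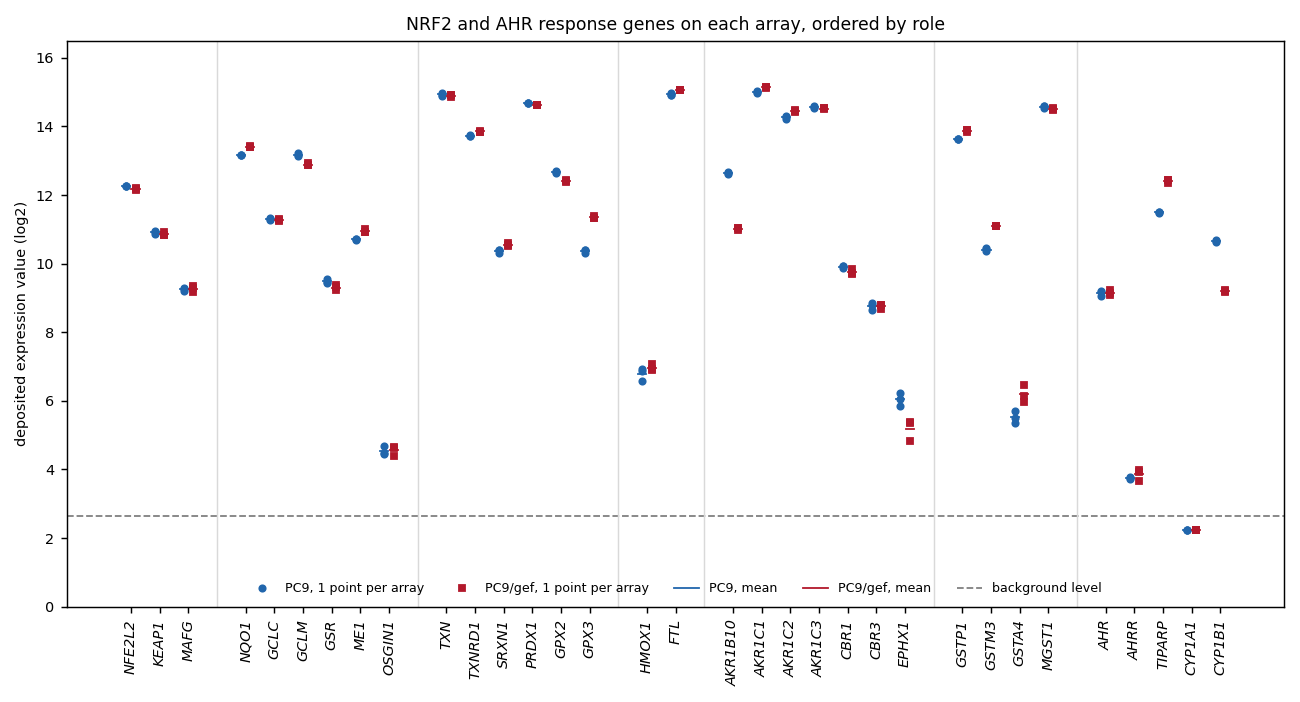
Deposited log2 value (vertical axis) of the 33 genes on each array, ordered by role from left to right, with PC9 arrays as circles, PC9/gef arrays as squares and short bars for the means. AKR1B10, CYP1B1, GPX3 and TIPARP show the widest gaps between the lines, and CYP1A1 lies under the dashed background level of 2.65 in both.

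To show a control sequence known from NRF2 targets, the promoter windows given by RefSeq (GRCh38.p14, 250 bases before to 50 after each annotated start) were searched on both strands for the core of the antioxidant response element, TGACNNNGC, which reads GCNNNGTCA on the other strand. Of the 33 genes 27 had a window, and 10 of these (37.0%) held the core, against 16.1% of all 27305 genes with a window. A gene counted if any of its windows held the core, and 35116 windows were searched over the 27305 genes. Many of the 33 genes were picked as NRF2 targets, so the higher share is not a result of these data. The core was present in 4 of the 12 genes that rose and had a window and in 3 of the 4 that fell and had one, so genes with the core moved both ways. A match is a description of the letters and not of binding. Bases outside the windows were not searched, so a gene without a match may hold the core elsewhere. The 7 genes with the core that passed are given next with 1 match each in capitals, in the direction of the gene, and with the position of its first base relative to the start.
GSTP1 (rose, position -66, chr11:67583736-67583764, plus strand): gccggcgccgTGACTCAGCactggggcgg
ME1 (rose, position -137, chr6:83431170-83431198, minus strand): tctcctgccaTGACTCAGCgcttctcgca
TXNRD1 (rose, position -99, chr12:104215670-104215698, plus strand): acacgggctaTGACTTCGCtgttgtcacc
GSTA4 (rose, position -9, chr6:52995275-52995303, minus strand): ccgggaccgcTGACCTGGCgctttgtgcg
GCLM (fell, position -34, chr1:93909446-93909474, minus strand): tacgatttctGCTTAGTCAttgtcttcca
GPX2 (fell, position -122, chr14:64942849-64942877, minus strand): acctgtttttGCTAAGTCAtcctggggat
EPHX1 (fell, position -78, chr1:225825266-225825294, plus strand): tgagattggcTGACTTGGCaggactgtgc
The match in GSTP1 and that in ME1 have the same 9 letters although the genes lie on different chromosomes. The core of the xenobiotic response element, GCGTG (on the other strand, read as CACGC), is shorter and occurred in 40.6% of all genes with a window and in 18 of the 27 (66.7%). The genes were picked by name, so this higher share is not a result of these data either. The xenobiotic core was present in 7 of the 12 genes that rose and had a window and in 3 of the 4 that fell and had one. AHR, AHRR and CYP1A1, which did not pass, held it too, and CYP1B1 had no window. TIPARP, the AHR target that rose, held this core in the opposite direction at both places shown next.
TIPARP (position -208, chr3:156674372-156674396, plus strand): cgagaaaggaCACGCcccctcgcgg
TIPARP (position -142, chr3:156674438-156674462, plus strand): aacgaacgcgCACGCgcgcgcaggg
The genes with no window were AKR1B10, CYP1B1, GSR, PRDX1, HMOX1 and CBR3.

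The regulators of NRF2 were close to equal in the lines. NFE2L2, which encodes NRF2, was bright, with values of 12.25, 12.27 and 12.25 on the PC9 arrays and of 12.18, 12.14 and 12.21 on the PC9/gef arrays. All PC9/gef arrays lay below all PC9 arrays, by a margin of less than 0.1. The log2 change was -0.084 (standard error, SE, 0.019, adjusted p = 0.0363 from limma), a fall of 1.06-fold. The call was lost when PC9 replicate 1 (adjusted p in limma 0.0966), PC9 replicate 2 (0.116), PC9 replicate 3 (0.0916) or PC9/gef replicate 1 (0.0943) was left out. It was also lost when the probe sets of NFE2L2 were averaged (adjusted p in limma 0.270). A dimmer NFE2L2 probe set, at 7.36 in PC9 and 7.31 in PC9/gef, had a log2 change of -0.049 (limma p adjusted over probe sets = 0.70). KEAP1, the adaptor that targets NRF2 for degradation, had 10.94, 10.95 and 10.88 in PC9 and 10.84, 10.91 and 10.84 in PC9/gef. Its arrays overlapped between the lines, and its log2 change of -0.055 had a 95% confidence interval from -0.14 to 0.029 (adjusted p = 0.239 from limma). MAFG, a small MAF partner of NRF2, had 9.20, 9.28 and 9.30 in PC9 and 9.17, 9.29 and 9.34 in PC9/gef. Its interval ran from -0.14 to 0.16 around a log2 change of 0.010, and that of its second probe set, at 5.63 and 5.84, from -0.12 to 0.55 around 0.22. These are RNA levels, and NRF2 is known to be controlled mainly as a protein.

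Genes that supply reducing power and glutathione split. NQO1, a quinone reductase and widely used marker of NRF2 activity, had 13.17, 13.17 and 13.17 in PC9 and 13.44, 13.39 and 13.42 in PC9/gef. It rose by 1.19-fold (log2 change 0.25 with an SE of 0.012, limma adjusted p = 0.000425). ME1, the cytosolic malic enzyme that makes NADPH, had 10.70, 10.72 and 10.72 in PC9 and 11.00, 10.91 and 10.91 in PC9/gef, a rise of 1.17-fold (adjusted p = 0.00676). Another bright probe set of each gene did not pass, with log2 changes of -0.0098 for NQO1 and 0.044 for ME1. A further NQO1 probe set rose, with a log2 change of 0.35. On the probe sets that represent NQO1 and ME1, every PC9/gef array was above every PC9 array. GCLM, the modifier subunit of the enzyme that starts glutathione synthesis, went the other way, from 13.13, 13.15 and 13.22 to 12.88, 12.87 and 12.92. This is a fall of 1.21-fold (log2 change -0.28 with an SE of 0.030, adjusted p = 0.00386). GCLC, the catalytic subunit of the same enzyme, did not pass, with a mean of 11.30 in PC9 and 11.27 in PC9/gef. GSR, which recycles oxidized glutathione, had means of 9.49 and 9.30 on the probe set that represents it (adjusted p = 0.0557). Its other probe set fell, from 7.32, 7.32 and 7.42 to 7.08, 6.99 and 7.15, by 1.22-fold (log2 change -0.28, limma p adjusted over probe sets = 0.0364). OSGIN1, an oxidative stress-induced growth inhibitor, had means of 4.54 and 4.56 (adjusted p = 0.876).

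Among the genes of peroxide and thiol reduction, GPX3 stood out by its size. GPX3 encodes the secreted glutathione peroxidase of plasma. Its values were 10.40, 10.40 and 10.32 in PC9 and 11.33, 11.39 and 11.32 in PC9/gef, with a gap between the lines far wider than the spread within them. It rose by 1.96-fold (log2 change 0.97 with an SE of 0.034, limma adjusted p = 0.000205). A separate probe set of GPX3 had a log2 change of 1.11 (adjusted p over probe sets from limma 0.000741). GPX2, the gastrointestinal glutathione peroxidase, fell by 1.20-fold (adjusted p = 0.00404), from 12.71, 12.68 and 12.63 to 12.45, 12.38 and 12.42. The 2 peroxidase genes thus moved in opposite directions. TXNRD1, which reduces thioredoxin, rose by 1.09-fold (adjusted p = 0.00438), from 13.74, 13.71 and 13.73 to 13.85, 13.84 and 13.88. SRXN1, which repairs overoxidized peroxiredoxins, had 10.40, 10.39 and 10.31 in PC9 and 10.55, 10.61 and 10.50 in PC9/gef, a rise of 1.14-fold (adjusted p = 0.0297). Leaving out PC9 replicate 1 (0.0676), PC9 replicate 2 (0.0828), PC9 replicate 3 (0.0728), PC9/gef replicate 1 (0.0874) or PC9/gef replicate 2 (0.0535) ended the call. PRDX1, a peroxiredoxin, fell by 1.04-fold (adjusted p = 0.0052), from 14.68, 14.69 and 14.69 to 14.62, 14.63 and 14.62, the smallest change among the genes that passed. TXN, thioredoxin itself, did not pass, at 14.94 and 14.90.

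FTL, the ferritin light chain that stores iron, rose by 1.10-fold (log2 change 0.13 with an SE of 0.018, limma adjusted p = 0.0074). Its PC9 arrays had 14.93, 14.97 and 14.91, and all 3 PC9/gef arrays held the same value of 15.07. This probe set lay at the 99.8th percentile of the array. Both probe sets of FTL rose, but both are named _x_at, a suffix for probes that also match related transcripts. HMOX1, haem oxygenase 1 and another textbook NRF2 target, had means of 6.79 ± 0.19 (SD, n = 3 arrays) in PC9 and 6.97 ± 0.083 (SD, n = 3) in PC9/gef. It did not pass the test (adjusted p = 0.278), and its 95% confidence interval, from -0.13 to 0.49, includes a rise as large as that of NQO1.

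The steepest fall was that of AKR1B10, an aldo-keto reductase that reduces retinal and other aldehydes and is a marker of NRF2 activity in lung tumours. It had 12.66, 12.64 and 12.63 in PC9 and 11.04, 11.04 and 10.97 in PC9/gef. No array of one line came within 1.5 of an array of the other. AKR1B10 fell by 3.08-fold (log2 change -1.62 with an SE of 0.026, limma adjusted p = 4.64e-05). It has a single probe set, whose name ends in _s_at, a suffix for probe sets that can bind several transcripts.

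The AKR1C reductases, which act on steroids and carbonyls and lie side by side on chromosome 10, gave no such fall on the probe sets that represent them. AKR1C1 had 15.04, 15.02 and 14.98 in PC9 and 15.14, 15.13 and 15.14 in PC9/gef, a rise of 1.09-fold (adjusted p = 0.00783 from limma). AKR1C2 had 14.29, 14.28 and 14.21 in PC9 and 14.42, 14.47 and 14.46 in PC9/gef, a rise of 1.14-fold (adjusted p = 0.00964). AKR1C3 had means of 14.56 and 14.52 and did not pass (adjusted p = 0.0682). These probe sets were among the brightest of the array, with AKR1C1 at the 99.8th percentile and a highest deposited value of 15.72 for any probe set. AKR1C1 and AKR1C2 are near-identical genes, and their representing probe sets are named _x_at, for probes that also match related transcripts. A dimmer AKR1C1 probe set without this suffix had 8.03, 7.96 and 8.05 in PC9 and 7.53, 7.59 and 7.53 in PC9/gef, a fall of 1.38-fold (log2 change -0.47 with an SE of 0.034, p adjusted over probe sets = 0.00227). The dimmer AKR1C2 probe set without it had 9.13, 9.14 and 9.13 in PC9 and 8.71, 8.69 and 8.87 in PC9/gef, a fall of 1.30-fold (log2 change -0.38 with an SE of 0.055, p adjusted over probe sets = 0.0157). A probe set annotated to both genes had a log2 change of -0.22 (SE 0.086, p adjusted over probe sets = 0.143). The direction of AKR1C1 and of AKR1C2 is therefore not settled by these arrays. What makes their probe sets differ was not tested.

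**Figure D2:**
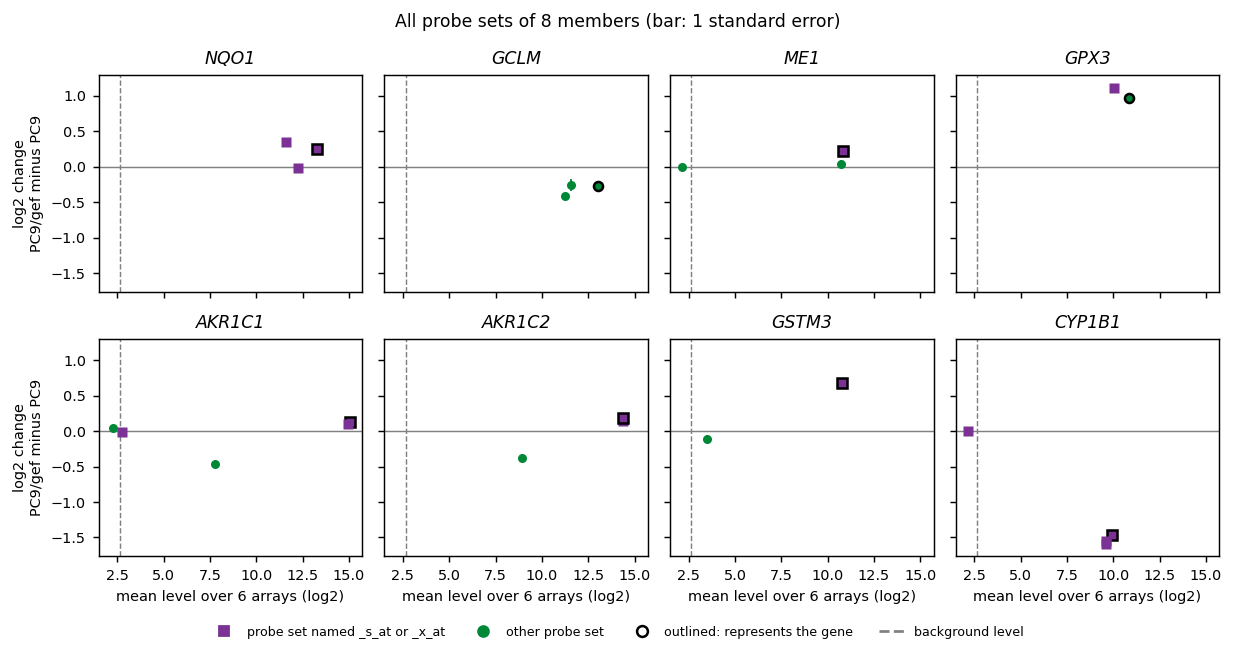
Log2 change, PC9/gef minus PC9 (vertical axis, bars 1 standard error), against the mean level over 6 arrays (horizontal axis, log2) for every probe set of 8 genes, squares being probe sets named _s_at or _x_at and outlines the one that represents the gene. The bright probe sets of AKR1C1 and AKR1C2 lie above 0 and a dimmer one of each below it, while 3 probe sets of CYP1B1 and both of GPX3 lie together.

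EPHX1, microsomal epoxide hydrolase, was dim and variable, with 6.06, 6.22 and 5.86 in PC9 and 5.39, 5.37 and 4.83 in PC9/gef. The lines did not overlap, and EPHX1 fell by 1.80-fold (log2 change -0.85 with an SE of 0.20, limma adjusted p = 0.0395). Leaving out PC9 replicate 1 (adjusted p in limma 0.120), PC9 replicate 2 (0.121), PC9 replicate 3 (0.0771), PC9/gef replicate 1 (0.0712) or PC9/gef replicate 2 (0.0595) ended the call. The carbonyl reductase genes did not pass: CBR1 had means of 9.91 and 9.75 (adjusted p = 0.056) and CBR3 of 8.77 and 8.76 (adjusted p = 0.914). With PC9/gef replicate 2 left out, CBR1 passed with a log2 change of -0.21 (limma adjusted p = 0.0102).

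Glutathione transferases join glutathione to reactive molecules. Of the 4 such genes among the 33, 3 rose and MGST1 did not pass. Over all genes tested 14.4% rose, and 23.8% of those above background level in at least 1 line. GSTM3 had 10.43, 10.45 and 10.36 in PC9 and 11.09, 11.08 and 11.10 in PC9/gef, a rise of 1.60-fold (log2 change 0.68 with an SE of 0.026, limma adjusted p = 0.000244). The second probe set of GSTM3, near background level at 3.53 and 3.42, had a log2 change of -0.11 that did not pass (p adjusted over probe sets = 0.208). GSTP1, the most abundant form in many lung tumours, rose by 1.19-fold (adjusted p = 0.000579), from 13.63, 13.62 and 13.63 to 13.85, 13.89 and 13.89. GSTA4, which removes the lipid peroxidation product 4-hydroxynonenal, had 5.35, 5.71 and 5.50 in PC9 and 5.97, 6.13 and 6.46 in PC9/gef. Its rise of 1.59-fold was close to that of GSTM3 with an SE of 0.17 (adjusted p = 0.0455). Leaving out any of the 6 arrays ended the call of GSTA4, with adjusted p from 0.0583 (PC9/gef replicate 1) to 0.133 (PC9 replicate 1). MGST1, a microsomal transferase, had means of 14.58 and 14.52 and did not pass (adjusted p = 0.119), but did so at a log2 change of -0.089 with PC9 replicate 3 left out (limma adjusted p = 0.033).

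**Figure D3:**
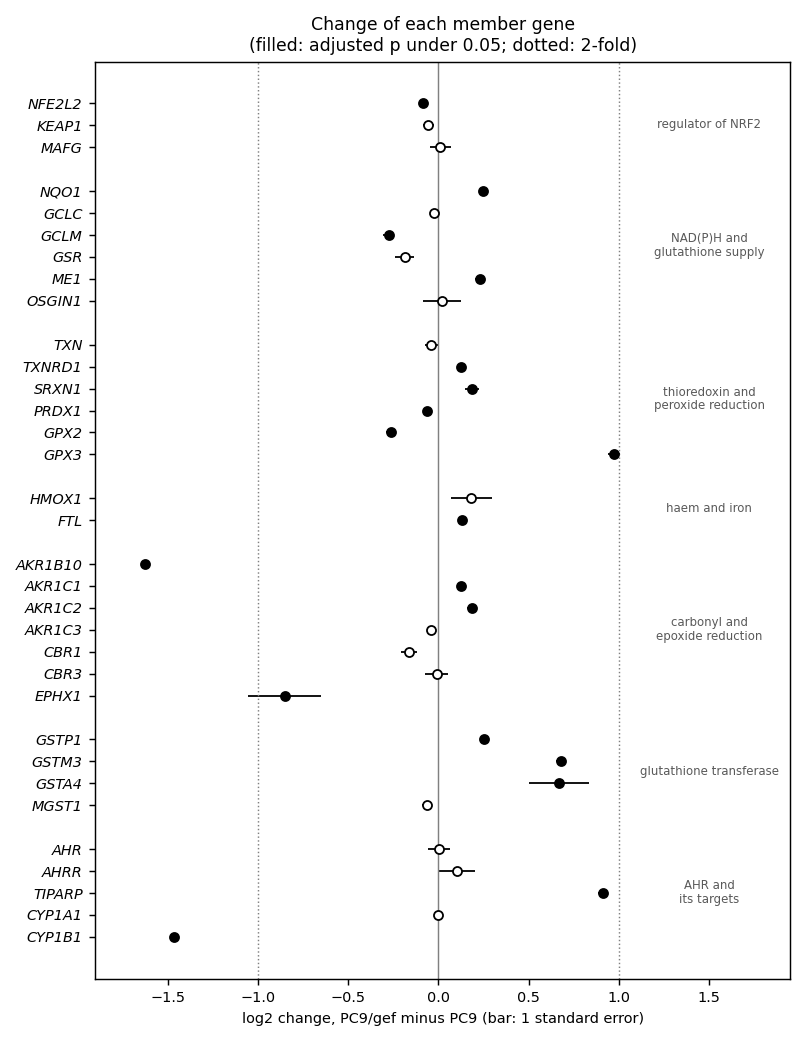
Difference in log2 value, PC9/gef minus PC9, for the 33 genes by role (horizontal axis), points being estimates, bars 1 standard error, filled points genes with an adjusted p under 0.05 and dotted lines a 2-fold change. Only AKR1B10 and CYP1B1 lie outside the dotted lines, while GPX3 and TIPARP lie just inside on the other side.

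The genes of the AHR branch did not move together either. AHR itself had 9.04, 9.19 and 9.20 in PC9 and 9.22, 9.14 and 9.08 in PC9/gef. Its arrays overlapped, and the log2 change of 0.0046 had a 95% confidence interval from -0.16 to 0.17 (adjusted p = 0.969 from limma). TIPARP, an ADP-ribosyltransferase that AHR induces and that represses it in turn, had 11.51, 11.49 and 11.50 in PC9 and 12.44, 12.44 and 12.36 in PC9/gef. It rose by 1.88-fold (log2 change 0.91 with an SE of 0.026, adjusted p = 0.000133). CYP1B1, a cytochrome P450 that oxidizes oestradiol and polycyclic hydrocarbons, went the opposite way, with 10.64, 10.67 and 10.68 in PC9 and 9.23, 9.16 and 9.21 in PC9/gef. It fell by 2.76-fold (log2 change -1.46 with an SE of 0.022, adjusted p = 4.22e-05), and 2 further probe sets of CYP1B1 above background level had log2 changes of -1.59 and -1.56. All probe sets of CYP1B1 are named _s_at. CYP1A1, the P450 gene most readily induced by AHR ligands, lay at background level on all 6 arrays, at 2.24, so a difference could not be detected there. AHRR, the AHR repressor, was dim, with means of 3.75 and 3.85 (adjusted p = 0.447). It passed with PC9/gef replicate 2 left out (log2 change 0.21, limma adjusted p = 0.0244).

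Read by probe set, with adjustment over all 54613 probe sets, 16 of the 65 probe sets rose, 11 fell and 38 did not pass, 8 of the 65 lying at background level in both lines. Over all probe sets 7.61% rose and 8.99% fell. The median deposited value of an array, 2.55, lay under the background level of 2.65. These shares are therefore over unlike probe sets, and no share over probe sets above background level was computed. Of the 18 genes with several probe sets, AKR1C1 and AKR1C2 were the 2 with probe sets that passed in opposite directions. The probe sets of NQO1, all named _s_at, had log2 changes of 0.25, -0.0098 and 0.35, and the middle one did not pass. The 3 probe sets of GCLM all lay lower in PC9/gef, at -0.28, -0.26 and -0.41, and the middle one did not pass. For ME1 the other bright probe set, at 10.70 in PC9, had a log2 change of 0.044 (p adjusted over probe sets = 0.519).

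Related genes outside the 33 also moved both ways. Beside the counts that follow, 31.5% of all genes tested passed, and 46% of those above background level in at least 1 line. Of 42 measured further NRF2 target genes 14 rose, 12 fell and 16 did not pass (61.9% passed), with a median log2 change of 0.013. Steep changes in this list were found in ALDH3A1, an aldehyde dehydrogenase that AHR also induces, which fell by 5.62-fold (log2 change -2.49 with an SE of 0.043, limma adjusted p = 5.45e-05), and KYNU, kynureninase of tryptophan breakdown, which rose by 2.49-fold (adjusted p = 6.99e-05). HIPK2, a nuclear kinase, rose by 2.05-fold, while TKT, transketolase of the pentose phosphate pathway, fell by 1.96-fold and GPX1, the main cytosolic glutathione peroxidase, by 1.92-fold. Of 18 measured further regulators of NRF2, 3 rose, 4 fell and 11 did not pass (38.9% passed). PGAM5, a mitochondrial phosphatase that binds KEAP1, fell by 1.75-fold (adjusted p = 0.00257), and NFE2L3, a relative of NRF2, by 1.46-fold (adjusted p = 0.00638). GSK3B, a kinase that promotes NRF2 degradation, rose by 1.58-fold (adjusted p = 0.00146), RXRA, a nuclear receptor that can repress NRF2, fell by 1.30-fold (adjusted p = 0.0111), and DPP3, which competes for KEAP1, rose by 1.20-fold (adjusted p = 0.00388).

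Of 21 measured further genes of the AHR pathway 5 rose, 4 fell and 12 did not pass, 4 of the 21 lying at background level in both lines. The share that passed was 42.9%, against 31.5% of all genes tested and 46% of those above background level in a line. STC2, which encodes the secreted glycoprotein stanniocalcin 2, rose by 21.8-fold, from a mean of 5.15 ± 0.30 (SD, n = 3) to 9.60 ± 0.074 (SD, n = 3; log2 change 4.45, adjusted p = 0.000246 from limma). LRAT, an enzyme that esterifies retinol, rose by 2.93-fold (adjusted p = 0.000432), and PTGS2, an enzyme of prostaglandin synthesis, by 2.13-fold (adjusted p = 0.0124). The call of PTGS2 ended when PC9 replicate 1 (0.053), PC9 replicate 2 (0.0526) or PC9 replicate 3 (0.051) was left out. ALDH3A1 and KYNU are also in this list. Of 33 measured further glutathione and aldo-keto genes 6 rose, 7 fell and 20 did not pass (39.4% passed), 10 of the 33 lying at background level. Besides GPX1, DCXR, a carbonyl reductase of sugars, fell by 1.42-fold (adjusted p = 0.00186). GSS, glutathione synthetase, rose by 1.35-fold (adjusted p = 0.00158), MGST3, a microsomal transferase, by 1.28-fold (adjusted p = 0.00456) and GSTO1, an omega class transferase, by 1.25-fold (adjusted p = 0.00198). MGST2, another microsomal transferase, and GSTCD, named for a transferase domain, were singled out after their values were seen and fell by 1.17-fold (limma adjusted p = 0.00636) and 1.25-fold (0.0422).

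**Figure D4:**
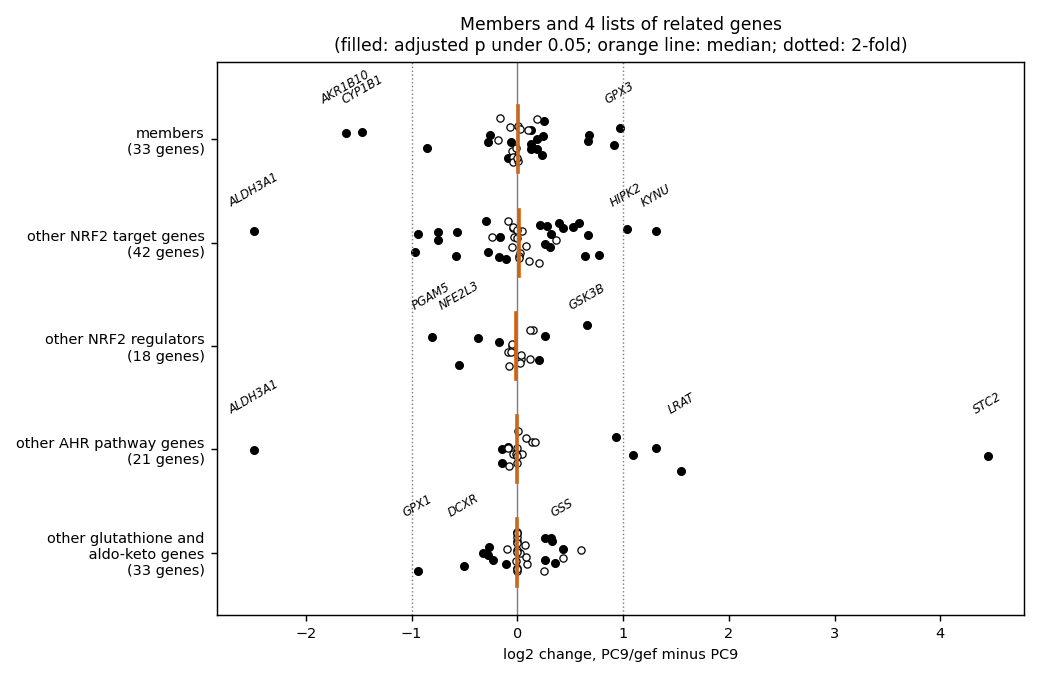
Difference in log2 value, PC9/gef minus PC9 (horizontal axis), for the 33 genes and of 4 lists of related genes (rows), 1 point per gene, filled where the adjusted p was under 0.05, with the row's median as an orange line and the names of the 3 steepest changes that passed above each row. Every row has filled points on both sides of 0, with STC2 far to the right.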

How the data were processed

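The authors deposited 1 table of log2 values, per probe set and array. For background correction, normalization and summary, GC-RMA and GeneSpring GX are named in their supplementary methods, whereas RMA is named in the submitters' processing notes. Versions are not given in the sources used here. The sorted values are the same on all 6 arrays, so no further normalization was applied. No counts lie behind the values, and the number of arrays limits the precision. With 3 against 3 arrays, the smallest two-sided p of an exact permutation test is 0.1.

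Probe sets were named from GEO's platform annotation, which can be old. The 62 Affymetrix controls were left out, 41091 probe sets had 1 gene, 1801 several and 11721 none. The background level is the 95th percentile over 135 probe sets of olfactory receptors (means of 6 arrays). The lines were compared with limma 3.58.1 in R 4.3.3 (lmFit and eBayes) over all probe sets, without a block. The fit was tested on simulated data.

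The genes and the 4 lists of related genes were chosen with earlier results of these data known, and the lists were written from general knowledge. Values on every array are given for the regulators and for every gene that passed, and from each list up to 5 genes with the steepest change among those that passed. Promoter windows were searched under Python 3.11.15, and figures were drawn with matplotlib 3.10.9. The settings varied were quantile normalization, centring on the median or on bright probe sets, moderation, leaving out each array in turn, a filter on dim probe sets, a block for the replicate number, a minimum change of 1.5-fold and the choice of probe set per gene.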

Additional observations from a re-analysis of the deposited data

How the results depend on the processing

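Among the 33 genes the 12 that rose became 10 to 11 without 1 array, the 7 that fell 5 to 7, and the 2 over 2-fold stayed 2. Probe sets that rose ranged from 11 to 16 and those that fell from 9 to 14. Against a minimum change of 1.5-fold, 2 of the 33 genes rose (GPX3 and TIPARP) and 2 fell (AKR1B10 and CYP1B1), with 3 probe sets up and 4 down. For this and the other changed settings, shares over all genes are not given here, so these counts cannot be set against the whole array. When probe sets with the suffixes _x_at and _s_at were dropped, 5 genes rose and 0 were over 2-fold, because AKR1B10 and CYP1B1 then have no value. Under that setting AKR1C1 and AKR1C2 turned to log2 changes of -0.47 and -0.38 (likewise -0.47 and -0.38 on the probe set with the highest variance), GSTM3 to -0.11 and MGST3 to -0.012. GSR and CBR1 passed with trended robust moderation (adjusted p in limma 0.0372 and 0.0382) and with the filter on dim probe sets (0.0267 and 0.03), under which NFE2L2 (0.0545) and PRDX1 (0.0755) did not. GSR also passed on its most variable probe set (0.0234) and averaged over both (0.0353). Averaged over all their probe sets, AKR1C1 was -0.042 and AKR1C2 -0.017. The labels do not say whether replicate numbers pair the samples. Correlations of same-numbered deviations were -0.0255, 0.0155 and 0.0471. Those of unlike numbers ran from -0.0657 to 0.0503, so no pairing was evident over the array. With the replicate number as a block 7 genes and 7 probe sets rose. In the lists, a minimum change of 1.5-fold left 2 further NRF2 targets up and 3 down, 0 regulators up and 0 down, 3 AHR pathway genes up and 1 down, and 0 glutathione and aldo-keto genes up and 1 down. The filter on dim probe sets gave 5 regulators up, leaving out _x_at and _s_at probe sets 2 regulators down, and the mean over all probe sets 2 AHR pathway genes down. Without 1 array, the further NRF2 targets had 12 to 14 up and 11 to 12 down, the regulators 3 to 4 up and 3 to 4 down, the AHR pathway genes 4 to 5 up and 3 to 6 down, and the glutathione and aldo-keto genes 4 to 6 up and 5 to 6 down. Of the 19 genes that passed, 15 passed in all 6 fits without 1 array. Signal over background limits what could be seen for CYP1A1.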
